A study of Mus musculus with 10 samples.

Results

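The genes described here are 9 of the 48471 mouse genes with summed counts in these libraries: the claudins Cldn2, Cldn4, Cldn7, Cldn12, Cldn15 and Cldn18, occludin (Ocln), and the zonula occludens scaffolds Tjp1 (ZO-1) and Tjp3 (ZO-3). They were chosen by name, and each gene's level is the sum of the reads estimated for all of its transcripts. The RNA came from cells that the labels call myofibroblastic cancer-associated fibroblasts (myCAFs) of pancreatic ductal adenocarcinoma, grown in C57BL/6J mice after KPC T-LOH organoids had been transplanted orthotopically. Each tumour sample had been sorted into a fraction with the surface protein CD90 (encoded by Thy1) and a fraction without it. There were 10 libraries, 5 labelled CD90+ and 5 labelled CD90-, and both fractions of a sample carry the same animal numbers, so the comparison was made within 5 pools. All groups share the strain, the organoid graft and the labelled cell type. Pools 2 and 5 name 1 animal each, pool 3 names 2, pool 4 names 3 and pool 1 names 4, which makes 11 animals, whereas the design text counts 5 male mice. The sources used here do not give the mice's age, the alleles behind the organoid name or any further sort marker.

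Tight junctions seal the space between neighbouring epithelial or endothelial cells near their apical edge. Claudins are small proteins with 4 membrane-spanning segments whose outer loops meet across the gap and set which ions and molecules can pass: some tighten the seal and others, such as claudin-2 and claudin-15, form cation pores. Occludin is a second membrane protein of the strand, and the zonula occludens proteins hold claudins and occludin at the cell cortex and tie them to actin. ZO-1 is also present at the cell contacts of many cells without tight junctions, fibroblasts included. Claudin-18 has a stomach form and a lung form that differ in their first coding exon, and the stomach form is well known from gastric mucosa and from pancreatic precursor lesions and cancers.

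The sort was reflected in its own gene. Thy1 lay between 2.07 and 16.0 CPM in the CD90- libraries and between 39.2 and 117 CPM in the CD90+ libraries (log2 fold -3.50, SE 0.50, edgeR quasi-likelihood adjusted p = 0.0056). Here and below folds are CD90- over CD90+, CPM are a gene's counts per M (mega) counts of the TMM-scaled library, and adjusted p is by Benjamini-Hochberg over all 15378 genes tested. The cells' labelled type was checked against marker lists. All 10 fibroblast markers were detected, with Col1a1 between 1819 and 9050 CPM in CD90- and between 13251 and 24082 CPM in CD90+ libraries, and 8 of the 10 fell in the CD90- fraction. Epithelial genes were detected in every library too. Their summed level (12 genes) ran from 740 to 3177 CPM in CD90- and from 186 to 1627 CPM in CD90+ libraries, was higher in CD90- in 5 of 5 pools, and 9 of the 12 rose. Of 9 foregut mucosal markers 7 were tested and 4 rose, with a summed level from 94.3 to 417 CPM against 7.78 to 141 CPM. Of 9 endothelial markers 3 rose (Pecam1, Cdh5 and Tie1). Tek (log2 fold 4.05), Kdr (-0.70) and Eng (-1.79) had an edgeR unadjusted p under 0.05 without passing the adjusted threshold. The summed endothelial level overlapped (40.4 to 304 against 48.2 to 102 CPM) and was higher in CD90- in 2 of 5 pools. Acinar markers summed to 2.20 to 44.1 CPM against 1.26 to 6.39 CPM, higher in CD90- in 5 of 5 pools, and 1 of the 4 tested (Ctrb1) rose. Of 7 mesothelial markers tested (median log2 fold -1.32) Msln rose by 1.40 and Rspo1 fell by 1.30 on the log2 scale. Upk3b (-2.04), Wt1 (-1.96), Lrrn4 (-1.32) and Nkain4 (-1.23) had an edgeR unadjusted p under 0.05 without passing the adjusted threshold. Upk1b (-1.51) had neither, and Msln alone had a positive fold. The list's sums overlapped (159 to 284 against 205 to 325 CPM). The 5 pericyte markers tested had an unadjusted p under 0.05 without passing the adjusted threshold in edgeR, whereas DESeq2 called 5 and limma-voom 3, with Rgs5 on the higher side and the other 4 on the lower side. Their sums ran from 7.02 to 115 CPM against 45.1 to 77.1 CPM. Among 9 leukocyte markers 4 were tested and 0 were called by edgeR, DESeq2 or limma-voom, 0 with an unadjusted p under 0.05. Mitochondrial ribosomal RNA took 35.6% to 84.4% of the counts of a CD90- library and 10.5% to 44.8% of a CD90+ library, and was higher in CD90- in 5 of 5 pools. The parts that these cell types and the mitochondrial RNA play in the values below were not tested. In bulk RNA, fewer cells of a type and less RNA per cell cannot be told apart. Libraries held 11.7 to 47.7 M estimated counts in total, and nuclear genes that code for proteins took 3.71 to 28.5 M of them.

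The sequences that matter most are those of Cldn18, because its 2 first coding exons give 2 different claudins from 1 gene. Both exons are 220 bases long, lie on the minus strand of chromosome 9 in GRCm38, and are followed by the same 4 coding exons out of 5. The stomach-type exon (transcript Cldn18-202, chr9:99716996-99717215) and the lung-type exon (transcript Cldn18-201, chr9:99709729-99709948) are shown 5′ to 3′ from the start codon, with capitals at every base that differs between them.
Cldn18-202, stomach type: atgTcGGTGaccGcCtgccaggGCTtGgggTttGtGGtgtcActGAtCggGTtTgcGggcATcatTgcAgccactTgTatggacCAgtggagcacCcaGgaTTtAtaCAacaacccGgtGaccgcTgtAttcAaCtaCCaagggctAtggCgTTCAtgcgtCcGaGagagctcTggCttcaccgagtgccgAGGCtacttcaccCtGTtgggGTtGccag
Cldn18-201, lung type: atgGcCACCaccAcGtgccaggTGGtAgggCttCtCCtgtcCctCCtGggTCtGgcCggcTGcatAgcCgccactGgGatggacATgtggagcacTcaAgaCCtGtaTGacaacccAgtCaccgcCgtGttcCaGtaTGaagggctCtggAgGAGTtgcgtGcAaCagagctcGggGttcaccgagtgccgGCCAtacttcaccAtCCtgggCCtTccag
The exons share 153 of 220 bases (69.5%), so a read that covers either one can be told from the other. The annotated transcript starts lie 7204 bases apart, and each has its own upstream sequence.

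Those upstream windows are shown next to that of Cldn4, since Cldn18 and Cldn4 followed different patterns over the libraries, as described below. Each window is the 250 bases before an annotated start in GRCm38.p6, taken from RefSeq, on the minus strand and written 5′ to 3′. All 9 members matched the table, with 15 windows in all. They were searched on both strands for TGANTCA (the AP-1 site), CAGGTG (the E-box bound by SNAI and ZEB repressors) and AACNGGTT (the grainyhead site), none of which overlaps another in letters, and capitals mark the matches.
Cldn18, stomach-type start (chr9:99717268-99717517): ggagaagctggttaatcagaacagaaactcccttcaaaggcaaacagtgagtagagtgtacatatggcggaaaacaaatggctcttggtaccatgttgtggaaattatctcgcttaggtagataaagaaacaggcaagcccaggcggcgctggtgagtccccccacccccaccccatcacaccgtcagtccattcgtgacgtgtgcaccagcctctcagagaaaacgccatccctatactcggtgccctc
Cldn18, lung-type start (chr9:99710064-99710313): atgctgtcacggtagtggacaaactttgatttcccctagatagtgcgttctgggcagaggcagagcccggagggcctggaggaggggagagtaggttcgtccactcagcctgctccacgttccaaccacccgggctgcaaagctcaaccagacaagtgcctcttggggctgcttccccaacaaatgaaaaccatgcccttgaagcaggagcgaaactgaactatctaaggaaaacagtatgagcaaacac
Cldn4 (chr5:134946935-134947184): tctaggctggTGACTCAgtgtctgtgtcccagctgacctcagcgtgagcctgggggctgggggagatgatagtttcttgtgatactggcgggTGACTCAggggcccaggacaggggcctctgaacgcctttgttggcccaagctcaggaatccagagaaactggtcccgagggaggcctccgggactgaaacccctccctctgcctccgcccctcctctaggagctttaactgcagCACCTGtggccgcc
The Cldn4 window held TGANTCA at 2 places and CAGGTG at 1. Neither Cldn18 window held any of the 3 motifs, nor did those of Cldn2, Cldn12 and Tjp1. CAGGTG was found in 5 of the 15 members' windows, belonging to Cldn4, Cldn7, Ocln and Tjp3, against 17.2% of all 32851 windows of this length. TGANTCA was found in 2 of the 15 (Cldn4 and Cldn15), against 6.75% of all windows, and AACNGGTT in 0, against 1.79%. A match is a description of letters and shows no binding.

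Within the 5 pools, 3 of the 9 genes rose in the CD90- fraction: Cldn18, Ocln and Tjp1. Cldn18 was about 8.08-fold higher, Ocln 7.32-fold and Tjp1 1.79-fold. No member was called lower by edgeR, where 0 members had a negative fold with an unadjusted p under 0.05, and DESeq2 and limma-voom called 0 lower as well. Over all genes tested, 5.83% were called higher, 7.05% lower and 12.9% in either direction. All 9 members passed the filter on low counts. Of these, 8 had a positive fold, and the members' median log2 fold was 2.46 beside 0.04 over all genes. DESeq2 called 6 of the 9 higher, where it called 11.1% of the genes it gave an adjusted p, and limma-voom called 4, where it called 7.44%. Only 1 member, Cldn18, had CD90- libraries that all lay above all CD90+ libraries (3.32% of all genes did so), and 3 members were higher in CD90- in all 5 pools (13.5% of all genes).

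**Figure D1:**
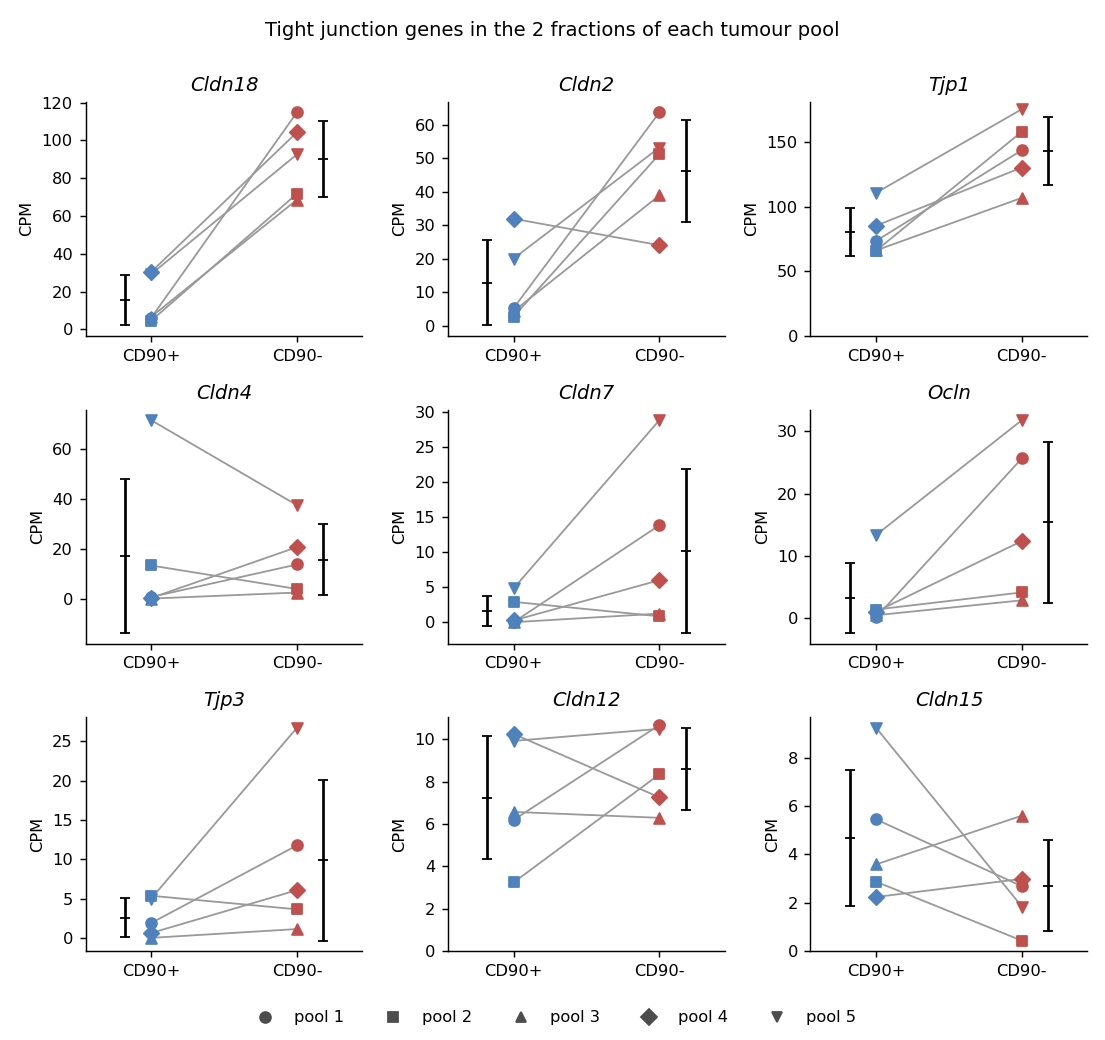
CPM (y axes, linear) of each gene in the CD90+ (blue) and CD90- (red) library of each of the 5 pools; grey lines join the 2 libraries of a pool and black bars give the mean and SD (n = 5). Cldn18, Ocln and Tjp1 are higher in CD90- in every pool, whereas Cldn4 is highest, at 71.3 CPM, in the CD90+ library of pool 5.

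Cldn18 reached 115, 71.7, 68.6, 104 and 92.6 CPM in the CD90- libraries of pools 1 to 5. In the CD90+ libraries of the same pools it was at 6.01, 4.51, 6.54, 30.4 and 29.2 CPM. The groups did not overlap, and the CD90+ libraries of pools 4 and 5 stood above the other 3. The log2 fold was 3.01 (SE 0.44, edgeR adjusted p = 0.0056), and the difference of log2 CPM within a pool ran from 4.24 in pool 1 to 1.66 in pool 5. Estimated counts behind these values ran from 129 to 3464 reads.

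Cldn2, the pore-forming claudin of leaky epithelia, followed the same libraries. It was at 63.7, 51.2, 38.9, 24.0 and 53.2 CPM in CD90- and at 5.22, 2.68, 4.28, 31.9 and 20.04 CPM in CD90+ libraries. As for Cldn18, the CD90+ libraries of pools 4 and 5 were the high ones, and in pool 4 the order was turned, with 31.9 CPM in CD90+ and 24.0 CPM in CD90-. The log2 fold of 2.49 (SE 0.73) missed the threshold with all pools (edgeR adjusted p = 0.0701). Without pool 4, the only one with the turned order, it was 3.10 (adjusted p = 0.0148). Without pool 1, 2, 3 or 5 the adjusted p was 0.204, 0.139, 0.232 and 0.0988.

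Cldn12 and Cldn15 did not pass the test. Cldn12, a claudin that lacks the usual PDZ-binding end, was at 10.7, 8.35, 6.30, 7.26 and 10.5 CPM in CD90- and at 6.20, 3.25, 6.57, 10.3 and 9.92 CPM in CD90+ libraries (log2 fold 0.33, SE 0.33, edgeR adjusted p = 0.590). With an offset for transcript length the log2 fold was -0.11. Cldn15, the intestinal cation pore, was at 2.69, 0.436, 5.60, 2.99 and 1.85 CPM against 5.45, 2.87, 3.59, 2.24 and 9.23 CPM, and was lower in CD90- in 3 of 5 pools (log2 fold -0.98, SE 0.64, edgeR adjusted p = 0.379). The groups of both genes overlapped.

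Cldn4 and Cldn7, sealing claudins of simple epithelia, ranged widely over the pools in both fractions. Cldn4 was at 13.8, 4.06, 2.63, 20.7 and 37.5 CPM in CD90- and at 0.839, 13.4, 0.211, 0.460 and 71.3 CPM in CD90+ libraries. It was higher in CD90- in pools 1, 3 and 4 and lower in pools 2 and 5, and its log2 fold of 2.10 (SE 1.498) did not pass (edgeR adjusted p = 0.450). Its group means, 15.7 ± 14.2 and 17.2 ± 30.7 CPM (SD, n = 5), lay the other way round from that fold, and the fold was -0.11 without the pool block. Cldn7 was at 13.8, 0.838, 1.23, 5.98 and 28.8 CPM in CD90- and at 2.90, 0.246 and 4.81 CPM in the CD90+ libraries of pools 2, 4 and 5. The CD90+ libraries of pools 1 and 3 held 0 Cldn7 reads, which allows up to 0.140 and 0.0452 CPM, counting error only. Cldn7 was lower in CD90- in pool 2 alone, and its log2 fold of 3.88 (SE 1.57, edgeR adjusted p = 0.163) did not pass. Among the fits with 1 pool left out it passed only without pool 2 (4.99, adjusted p = 0.0303). Without pool 1, 3, 4 or 5 the adjusted p was 0.324, 0.348, 0.303 and 0.219. With all pools, DESeq2 called Cldn7 (4.93, adjusted p = 0.0105) and limma-voom did not (2.94, adjusted p = 0.118). With no filter on low counts edgeR called it too (3.89, adjusted p = 5.07e-09), at almost the same fold as the main fit. That unfiltered fit also called Cldn4 (adjusted p = 5.22e-07), which was lower in CD90- in pools 2 and 5. Its small p-values are therefore not read as stronger evidence.

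Ocln was at 25.6, 4.16, 2.89, 12.4 and 31.8 CPM in CD90- and at 0.140, 1.41, 0.498, 1.07 and 13.4 CPM in CD90+ libraries. It was higher in CD90- within every pool, but the groups overlapped because the CD90+ library of pool 5 exceeded 3 of the CD90- libraries. The log2 fold of 2.87 (SE 0.79) lay just inside the threshold (edgeR adjusted p = 0.0498). It did not pass without pool 2, 3, 4 or 5 (adjusted p of 0.0640, 0.119, 0.126 and 0.0577) or without the block (0.263). It passed in 10 of 17 settings, the main one included. Among these were edgeR without pool 1 (adjusted p = 0.0381), DESeq2 (2.91e-05) and limma-voom (0.0237).

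Of the scaffolds, Tjp1 had the smallest spread. It was at 144, 158, 107, 130 and 175 CPM in CD90- and at 73.4, 65.9, 66.1, 85.2 and 111 CPM in CD90+ libraries. Every pool showed the difference, by 0.61 to 1.26 on the log2 scale, and the groups met only at the CD90+ library of pool 5 and the CD90- library of pool 3. The log2 fold was 0.84 (SE 0.15, edgeR adjusted p = 0.0064), and with an offset for transcript length it was 0.59 and did not pass (adjusted p = 0.0970). Tjp3, which is largely restricted to epithelia, was at 11.8, 3.65, 1.15, 6.09 and 26.7 CPM against 1.91, 5.38, 0.0302, 0.645 and 5.01 CPM. It was lower in CD90- in pool 2 alone, and its log2 fold of 2.46 (SE 0.71) lay just outside the threshold (edgeR adjusted p = 0.0527). Without that pool it was 3.11 (adjusted p = 0.0110), and without pool 1, 3, 4 or 5 the adjusted p was 0.177, 0.0806, 0.159 and 0.133.

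The members differed in which libraries they followed. Over the 10 libraries, which come in pairs from 5 pools and so are not independent, log2 CPM of Cldn18 correlated with Cldn2 (Pearson r = 0.95) and Tjp1 (r = 0.92). Cldn4 correlated with Cldn7 (r = 0.90) and Tjp3 (r = 0.86), and Cldn7 with Ocln (r = 0.94), whereas Cldn18 and Cldn4 gave r = 0.46. Ocln lay between, with r = 0.83 for Cldn4 and 0.81 for Cldn18. A like order stood against Epcam, which was at 69.4, 8.52, 5.19, 44.5 and 140.5 CPM in CD90- and at 0.839, 20.2, 0.633, 0.645 and 94.7 CPM in CD90+ libraries. With Epcam, r was 0.97 for Cldn4, 0.95 for Cldn7, 0.91 for Ocln and 0.86 for Tjp3, but 0.56 for Cldn18 and 0.43 for Cldn2. With Krt8, a keratin of simple epithelia, Cldn18 gave r = 0.89, Cldn2 r = 0.79 and Cldn4 r = 0.77. With the epithelial cadherin gene Cdh1, r was 0.85 for Cldn18, 0.81 for Cldn2 and 0.80 for Cldn4. Cldn7, Ocln and Tjp3 gave 0.89, 0.92 and 0.85 with Cdh1. The gap between Cldn4 and the pair Cldn18 and Cldn2 was thus seen with Epcam and not with Krt8 or Cdh1. Tjp1 ran against the collagen gene Col1a1 (r = -0.89) and the fibroblast receptor gene Pdgfra (r = -0.90). Cldn15 was the member with positive r for both (0.60 and 0.59). With the endothelial gene Pecam1, r was 0.90 for Tjp1, 0.82 for Cldn18 and 0.81 for Cldn2, against 0.44 for Cldn4. Pecam1 was among the endothelial markers that rose, whereas Kdr and Eng had negative folds, and no other endothelial marker was set against the members. These values share library depth and composition and are given as a description.

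**Figure D2:**
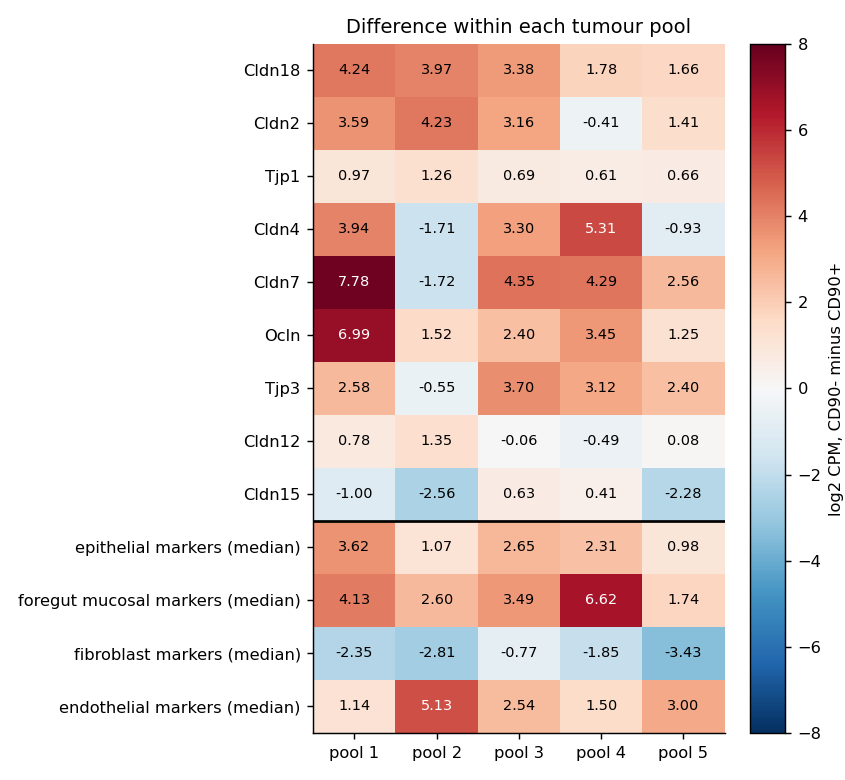
Difference in log2 CPM (CD90- minus CD90+, prior count of 2) within each of the 5 pools, for the 9 members and for the median of 4 marker lists; red is higher in CD90- and blue lower. Cldn18 runs from 4.24 in pool 1 to 1.66 in pool 5, and Cldn4 is negative in pools 2 and 5, at -1.71 and -0.93; values against libraries with few or no reads (Cldn7 in pools 1 and 3, Ocln in pool 1, Tjp3 in pool 3) depend on the prior count.

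Pool by pool, the marker lists moved as follows. The median epithelial difference of log2 CPM was 3.62, 1.07, 2.65, 2.31 and 0.98 in pools 1 to 5, and the median fibroblast difference was -2.35, -2.81, -0.77, -1.85 and -3.43. Pool 2, where Cldn4, Cldn7 and Tjp3 were lower in CD90-, had the second lowest epithelial difference and the highest endothelial one (5.13), with Pecam1 at 31.6 CPM in its CD90- library. Cldn18 and Cldn2 differed in that pool by 3.97 and 4.23, beside 4.24 and 3.59 in pool 1. Claudin-5, the claudin known from endothelium, took 0.121% to 1.76% of the claudin level in the CD90- libraries (0.851% in pool 2), 2.90% in the CD90+ library of pool 1 and 0% in the other 4.

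Levels of different genes were compared per length, as CPM per kilobase of effective transcript length. In the CD90- libraries the order by median was Cldn18 (47.1), Tjp1 (43.6), Cldn2 (20.2), Cldn4 (8.17), Ocln (6.82), Cldn7 (5.93), Cldn12 (5.92), Tjp3 (2.55) and Cldn15 (1.65). Tjp1 exceeded Cldn2 in 5 of 5 of these libraries (exact paired permutation p = 0.0625, two-sided, the smallest that 5 pairs allow), and the other neighbours did not keep their order in every library. In the CD90+ libraries Tjp1 led (median 23.5), followed by Cldn12 (6.65), Cldn18 (3.41), Cldn15 (2.09), Cldn2 (2.04), Ocln (0.667), Tjp3 (0.570), Cldn4 (0.471) and Cldn7 (0.204). There Tjp1 stood above Cldn12, Cldn2 above Ocln and Cldn4 above Cldn7 in 5 of 5 libraries, each with the same exact p of 0.0625. Cldn12 and Cldn18, next to each other in that order, did not differ beyond their spread (exact paired permutation p = 0.938). Tjp3 had a higher median than Cldn4 but exceeded it in only 1 of 5 CD90+ libraries. The place of Cldn12 in the CD90+ order rests on short models without a coding sequence: in the CD90+ library of pool 2, for example, Cldn12-208 gave 5.90 of its 6.65 CPM per kilobase from 44.4 reads. With protein-coding transcripts only, an alternative chosen after seeing the data, the CD90+ order was Tjp1 (11.4), Cldn18 (3.41), Cldn15 (2.09), Cldn2 (2.04) and Cldn12 (1.97), with the rest as before. In CD90- libraries Tjp1 then stood at 21.6 and Cldn12 at 2.76, and the order of the medians was the same. Tjp1 no longer exceeded Cldn2 in every CD90- library. In that of pool 1 Cldn2 stood at 25.9, above the highest coding level of Tjp1 in any CD90- library (25.0). Over all transcripts, the retained-intron model Tjp1-204 had given 18.3 of the 43.6 CPM per kilobase of Tjp1 in that library.

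Cldn18 also made up a larger part of the claudin transcripts. The per-length levels of 31 claudin genes were summed in each library, and 12 of the 31 had 0 reads in all 10. Cldn18 took 48.7%, 51.8%, 51.4%, 51.5% and 32.4% of that sum in the CD90- libraries of pools 1 to 5, and 11.7%, 6.57%, 16.3%, 32.8% and 19.9% in the CD90+ libraries. It was the leading claudin in all 5 CD90- libraries. In CD90+ libraries the leader was Cldn12 in pools 1 and 3 (31.9% and 24.8%), Cldn4 in pools 2 and 5 (20.2% and 38.5%) and Cldn18 in pool 4. The lead of Cldn12 again came from its short non-coding models. With protein-coding transcripts only, Cldn3 led in pools 1 and 3 (29.4% and 23.4%) and the leader of every other library was the same gene. Over all transcripts, the share of Cldn18 was 47.2% ± 8.34 against 17.5% ± 9.93 (SD, n = 5), a difference of 29.7 percentage points in the same direction in 5 of 5 pools (exact paired permutation p = 0.0625, two-sided, the smallest possible). With protein-coding transcripts only it was 49.3% ± 9.52 against 20.96% ± 11.6. Cldn2 and Cldn18 together took 64.5% ± 11.6 against 27.6% ± 18.4 (exact paired permutation p = 0.0625). That sum contains the Cldn18 share and was not among the planned tests, so it is not a separate result. A share does not depend on how libraries are scaled to each other. The summed claudin level itself was 134, 80.5, 74.4, 130.4 and 145 CPM per kilobase in CD90- and 26.7, 37.3, 20.9, 48.4 and 121 in CD90+ libraries.

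**Figure D3:**
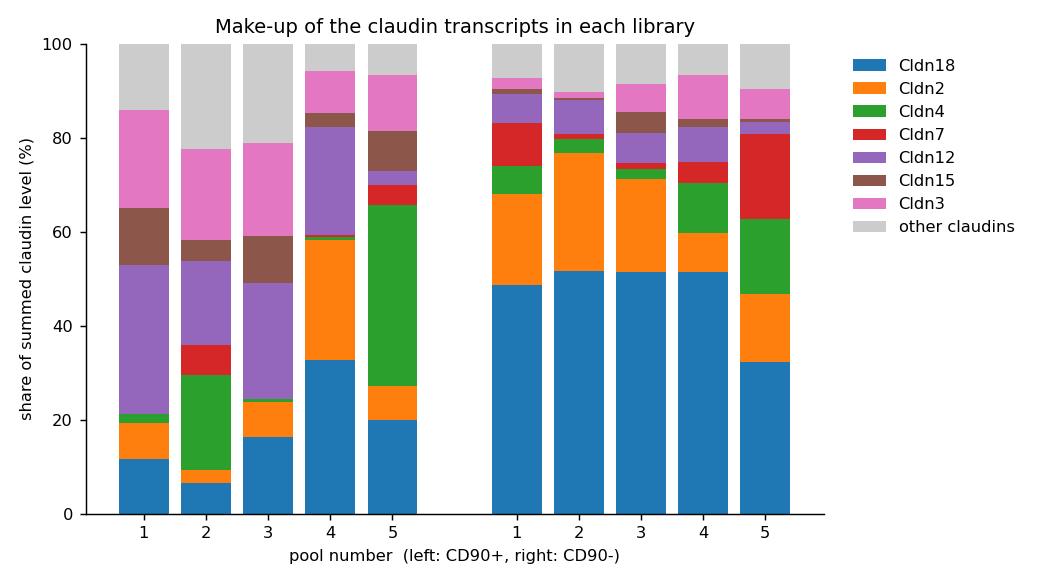
Share of the summed per-length claudin level (y axis, percent) taken by each claudin in the 5 CD90+ libraries (left) and the 5 CD90- libraries (right), by pool number; other claudins are grey. Cldn18 (dark blue, bottom) takes 32.4% to 51.8% in CD90- and 6.57% to 32.8% in CD90+ libraries.

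Reads were assigned to both forms of Cldn18 in every library. These are estimated levels, and reads over the first exons alone were not counted. Reads in the 2359 bases of last exon annotated only in Cldn18-201 count as lung type. The stomach-type transcripts stood at 53.9, 34.2, 30.2, 52.7 and 35.0 CPM per kilobase in CD90- and at 2.44, 1.81, 2.76, 11.7 and 15.2 in CD90+ libraries. The lung-type transcripts stood at 11.6, 7.42, 8.10, 14.3 and 12.1 against 0.691, 0.639, 0.643, 4.17 and 8.85. The estimates of the 2 forms thus moved with the same libraries. The stomach type made up 82.3%, 82.2%, 78.8%, 78.6% and 74.2% of the Cldn18 level in CD90- and 77.9%, 73.9%, 81.1%, 73.7% and 63.2% in CD90+ libraries. The mean share was 79.2% ± 3.31 against 74.0% ± 6.77 (SD, n = 5), higher in CD90- in 4 of 5 pools, and the difference of 5.25 percentage points did not pass the exact paired permutation test (p = 0.125, two-sided). The size of this difference depends on how reads are assigned. It was 9.16 points with counts not divided by length (exact p = 0.125) and 3.45 points without pools 4 and 5 (exact p = 0.500). With only the full-length models Cldn18-201 and Cldn18-202, an alternative chosen after seeing the data, it was 9.66 points, higher in CD90- in 5 of 5 pools (exact p = 0.0625). In the CD90+ library of pool 5 the short model Cldn18-203 gave 10.98 of the 15.2 CPM per kilobase of the stomach type from 61.5 reads. Of undivided counts the stomach type took 53.3% to 67.2% in CD90- and 39.1% to 62.8% in CD90+ libraries, with less than the lung type in the CD90+ libraries of pools 5 (39.1%) and 2 (49.6%).

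**Figure D4:**
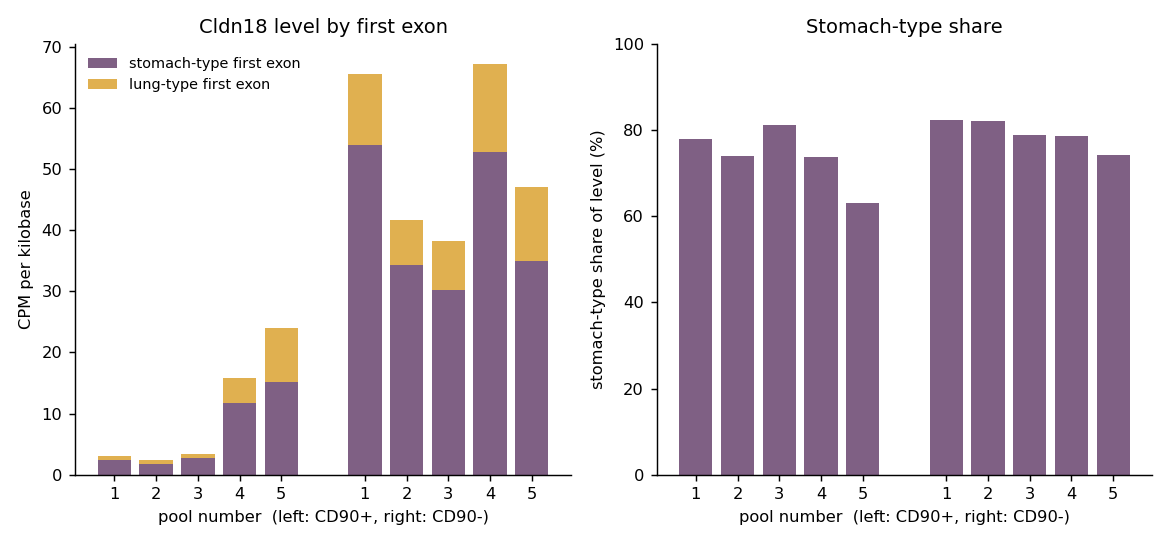
Left, Cldn18 level (CPM per kilobase) in each library, split by stomach-type (purple) and lung-type (yellow) first exon; right, the stomach-type share of that level in percent. Per length, the stomach type is the larger part in all 10 libraries, from 63.2% to 82.3%; of counts not divided by length it is 39.1% and 49.6% in the CD90+ libraries of pools 5 and 2.

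Single transcripts were tested on their own over 35891 transcripts, where edgeR called 19 (0.0529%). Of the members' 42 transcripts 16 were tested and 0 were called, 4 with an unadjusted p under 0.05, and no other tool was run on transcripts. Cldn18-202 had a log2 fold of 3.50 (SE 0.45, edgeR adjusted p = 0.0654) and Cldn18-201 one of 2.75 (SE 0.48, adjusted p = 0.115). These 2 models held 96.8% of the Cldn18 counts, 59.7% on Cldn18-202 and 37.2% on Cldn18-201. The last exon of Cldn18-201 is annotated 2359 bases longer than that of Cldn18-202, so reads from that stretch can be given only to the lung-type model, and the shares rest on this annotation. For Cldn12, Cldn15 and Ocln the model placed the reads of many libraries on 1 transcript and those of others on another. Cldn12-201, for example, took 286 reads in the CD90- library of pool 1 and 0 in that of pool 2, where Cldn12-202 took 232. Transcripts of those genes are therefore not described further. Of Tjp1, the model with the alternatively spliced alpha exon that epithelial ZO-1 is known to carry (Tjp1-202) held 53.0% of the counts. Its per-length share of the coding and nonsense-mediated-decay models was 51.5% ± 10.5 in CD90- and 47.8% ± 11.9 in CD90+ libraries (SD, n = 5), a difference of 3.64 percentage points with an SD of 11.01 over pools (exact paired permutation p = 0.500).

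The remaining junction genes were read from 5 lists drawn up by function. None of the 7 other claudins and claudin-like genes that could be tested was called by edgeR (2 had an unadjusted p under 0.05, and DESeq2 called 2 and limma-voom 0), and 9 of the 23 on the list had 0 reads in all libraries. Cldn3, a sealing claudin, averaged 6.90 ± 4.89 CPM in CD90- and 9.13 ± 5.12 CPM in CD90+ libraries (SD, n = 5). Its log2 fold was -0.60 (SE 0.53), and that of Cldnd1 was -0.26.

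Other membrane proteins of the junction went both ways, 3 of 11 higher and 3 lower. Lsr (angulin-1) and Marveld2 (tricellulin), which sit where 3 cells meet, rose by 1.23 (SE 0.19, edgeR adjusted p = 0.0048) and 3.96 (SE 1.01, adjusted p = 0.0304) on the log2 scale. Marveld2 was low, at 3.44 ± 3.14 CPM in CD90- and 0.444 ± 0.652 CPM in CD90+ libraries (lowest 0), with overlapping groups, which limits its fold. F11r (JAM-A), an adhesion molecule of epithelial and endothelial junctions, rose by 0.73 (SE 0.17). Jam3 (JAM-C) fell by 2.40 (SE 0.64), with CD90- libraries all below the CD90+ libraries (as for 4.62% of all genes), Clmp fell by 2.25 (SE 0.39) and Ildr2 fell by 1.71 (SE 0.32). Ildr2 stood at 52.5 ± 38.6 CPM in CD90- and 142 ± 34.6 CPM in CD90+ libraries. Cxadr had a log2 fold of 0.37 and Jam2 one of -0.53, neither of which passed. The list's median was 0.37. Over the alternatives other than the mitochondrial covariate, 1 to 3 of the list were called higher and 0 to 3 lower. Higher calls numbered 1 without pool 1, without pool 2 or with the length offset, and lower calls 0 without the block.

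Of 16 scaffolds and cytoskeletal linkers, 6 rose and 4 fell, with a median of 0.26. Alternatives other than the mitochondrial covariate called 1 to 7 higher and 0 to 4 lower. The fewest were 1 higher without the block and 0 lower without pools 4 and 5. Cingulin and its relative paracingulin, which link the ZO proteins to the cytoskeleton, rose, Cgn by 1.56 (SE 0.23, edgeR adjusted p = 0.0041) and Cgnl1 by 0.88 (SE 0.17). Magi1, a PDZ scaffold, rose by 2.21 (SE 0.30) and Afdn (afadin), which ties nectins to actin, by 0.73 (SE 0.14). Mpdz (MUPP1), another multi-PDZ scaffold, fell by 1.08 (SE 0.18, edgeR adjusted p = 0.0060). Named after their values were seen, the other genes that fell were Magi2, a relative of Magi1 (fell by 1.85, SE 0.45, with groups apart), and the angiomotin-like genes Amotl1 (fell by 1.07, SE 0.23) and Amotl2 (fell by 0.68, SE 0.16). Patj, a multi-PDZ scaffold of the Crumbs complex, rose by 1.41 (SE 0.38). Ybx3 (ZONAB) and Arhgef2 (GEF-H1), regulators that bind to junctions, had log2 folds of 0.14 and -0.07 and were not called.

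Of 10 apical polarity genes, 4 rose and 1 fell (median 0.42). Crb3, the epithelial Crumbs protein, rose by 2.93 (SE 0.80), Llgl2 by 1.74 (SE 0.29), and the PAR complex genes Pard6b by 1.42 (SE 0.39) and Pard3 by 0.59 (SE 0.13). Pard6g, a paralogue of Pard6b, fell by 1.96 (SE 0.54, edgeR adjusted p = 0.0392), with groups that did not overlap. Scrib (0.23) and Mpp5 (0.70) were not called. The count of higher calls in this list was 1 without pool 1, 2 or 4 or without the block, and 0 with the length offset, with the mitochondrial covariate or without pools 4 and 5. The call of Pard6g was lost whichever pool was left out.

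Among 15 claudin partners and regulators of claudin genes, 3 rose and 2 fell, with a median of 2.08. Spint2, a protease inhibitor whose loss is known to deplete EpCAM and claudin-7, rose by 2.15 (SE 0.22, edgeR adjusted p = 0.0014). The epithelial transcription factor Hnf4a rose by 2.62 (SE 0.57). Zeb2 and Snai1, repressors of epithelial junction genes, fell by 1.73 (SE 0.26) and 2.21 (SE 0.47). Zeb2 ran from 17.0 to 108 CPM in CD90- and from 109 to 177 CPM in CD90+ libraries without overlap. Zeb1, the close relative of Zeb2, averaged 53.9 ± 17.8 CPM in CD90- and 50.9 ± 12.5 CPM in CD90+ libraries (SD, n = 5). Its log2 fold was 0.07 (SE 0.24, edgeR adjusted p = 0.898). Epcam itself did not pass (log2 fold 2.84, SE 1.59, adjusted p = 0.342). Higher calls in this list ran from 0 without the block to 8 with no filter on low counts, the mitochondrial covariate aside. Lower calls ran from 1 to 3.

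**Figure D5:**
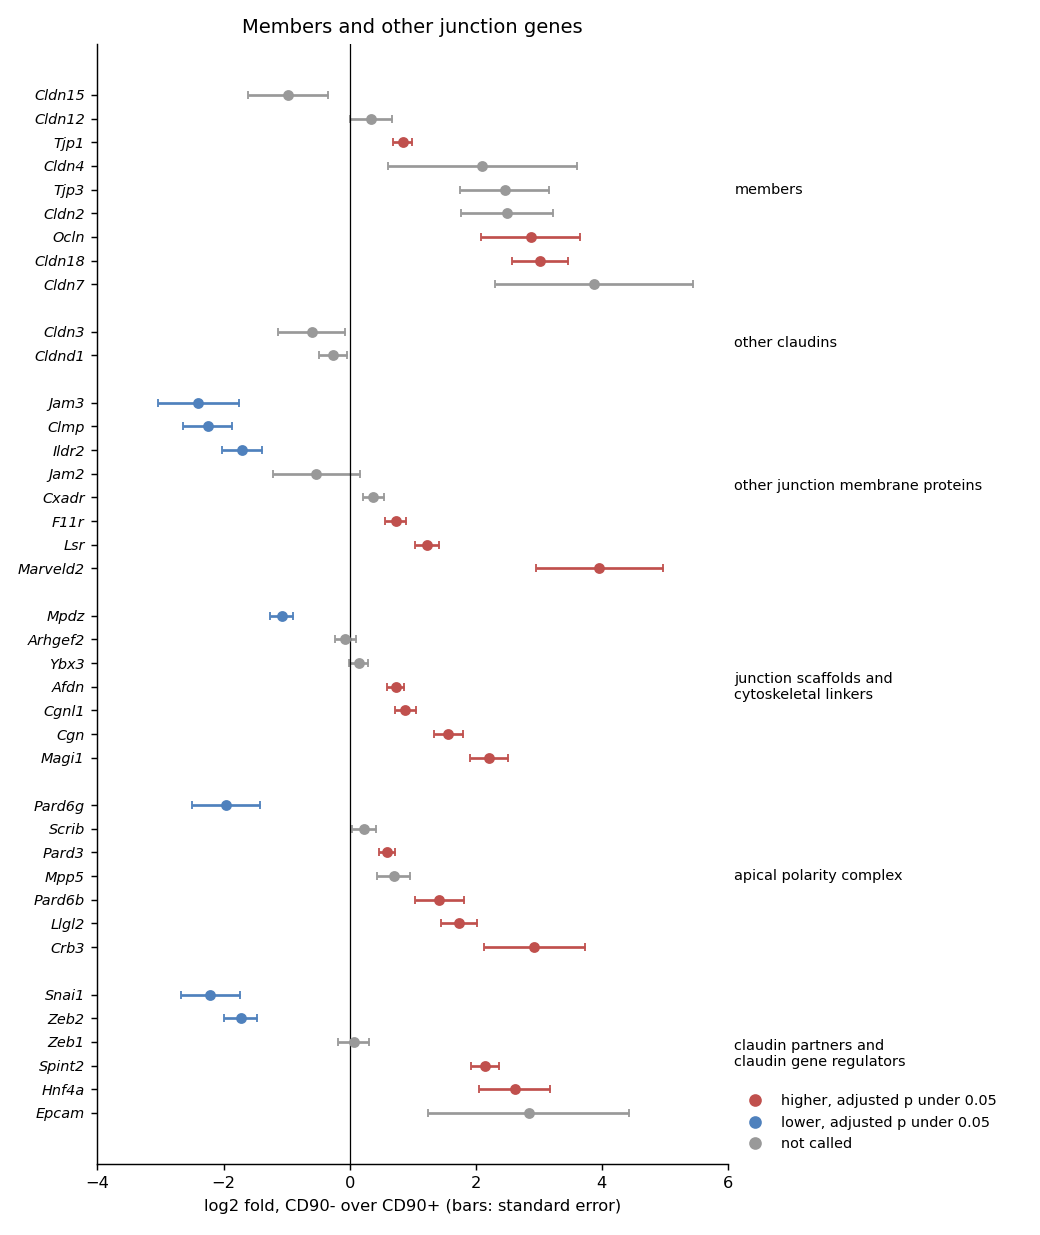
Log2 fold (CD90- over CD90+, x axis, bars give the standard error) of the 9 members and of other junction genes, grouped by list; red rose, blue fell and grey did not pass the adjusted p of 0.05. Marveld2 has the largest fold among the red points (3.96, with a mean of 0.444 CPM in CD90+ libraries) and Jam3 the lowest of the blue ones (-2.40).

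The genes whose pattern was most like that of Cldn18 were ranked by Pearson r of log2 CPM over the 10 libraries, among 7250 genes whose log2 CPM averaged 3 or more. The 5 nearest were Tm4sf4 (r = 0.988), a tetraspan membrane protein of gut and pancreas, Slc26a2 (r = 0.980), a sulfate transporter, Hhex (r = 0.975), a homeobox factor of foregut, liver and pancreas, Itga6 (r = 0.974), the laminin-binding integrin alpha-6, and Galc (r = 0.969), a lysosomal galactosidase. Tm4sf4 was at 67.4 ± 16.8 against 11.7 ± 10.1 CPM (SD, n = 5), a log2 fold of 2.92, and Galc had a log2 fold of 1.85. Folds of genes picked for likeness to Cldn18 over these same libraries follow from that choice and were not tested.

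When the mitochondrial ribosomal RNA share was added to the fit as a covariate, edgeR called 0 of the 15378 genes and 0 members, with 882 genes and 2 members at an unadjusted p under 0.05. The log2 fold of Cldn18 was then 3.49 and that of Tjp1 0.86, each with an adjusted p of 0.751, and that of Cldn4 was -3.09. Without pools 4 and 5, whose CD90+ libraries held the most Cldn18 and Cldn2, the Cldn2 fold was 3.64 (edgeR adjusted p = 0.0035). That larger fold follows from which pools were left out and is no separate support. Tjp1 (0.0533) and Ocln (0.179) did not pass in the same fit.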

How the data were processed

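RNA from 10 sorted fractions was sequenced. Per the labels' protocols, libraries came from 0.1 to 1.2 ng of RNA (integrity number 3.1 to 8.7) by a low-input stranded kit with 10 or 5 cDNA cycles and 14 final PCR cycles. The input of a given library is not recorded there, and without molecular identifiers reads are not independent molecules. The authors deposited estimated counts per transcript, from Salmon 1.9.0 and builds GRCm39 and mm39 per the submitters' processing notes, with effective lengths in bases as another deposited column. Not given in the sources used here are the annotation release and the strand setting.

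Of 144584 transcripts 133666 (92.4%) matched GENCODE M21 (GRCm38) by identifier, used for names and exon models. The others, with 3.63% to 12.1% of a library's counts, were left out. Counts were summed per gene, rounded and fitted in R 4.3.3 by edgeR 4.0.16 (TMM, filterByExpr, robust quasi-likelihood) with the pool as a block, at an adjusted p of 0.05. SEs follow from the F statistic. The block rests on shared animals: deviations of paired libraries correlated by 0.0567, 0.00436, 0.461, 0.0284 and 0.188. No 2 libraries of a group agreed within counting noise. Alternatives were DESeq2 1.42.0, limma-voom (limma 3.58.1), other size factors, filters, a length offset, no block, pools left out and a covariate. Shares were tested by exact sign flips over pools.

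The members and lists were chosen with earlier results of these data known. Named were the 9 members, Thy1, from each list up to 6 called genes by smallest p and up to 2 uncalled ones with the highest mean, and the 5 genes most like Cldn18. A few genes that this rule selects are left out of the text.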

Additional observations from a re-analysis of the deposited data

Results flagged for a closer look

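In 22 groups of 5 libraries (the CPM of the 9 members, the stomach-type share of Cldn18 and the Cldn18 share of claudins, each by fraction), the highest or lowest library was set against the others by Dixon's criterion, which flags about 1 in 20 groups by chance. Of these, 3 had such a library, all from pool 5. Cldn4 stood at 71.3 CPM in the CD90+ library of pool 5, where the next highest CD90+ library had 13.4 CPM. Ocln stood at 13.4 CPM in the same library, against 1.41 CPM in the next. Epcam was at 94.7 CPM in that library and between 0.633 and 20.2 CPM in the other CD90+ libraries. Whether epithelial RNA plays a part in these values was not tested. Cldn18 took 32.4% of the summed claudin level in the CD90- library of pool 5, where the next lowest CD90- library had 48.7%. That library had the highest CD90- levels of Cldn4 (37.5 CPM) and Cldn7 (28.8 CPM), while its Cldn18 level of 92.6 CPM was the third highest.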

How the results depend on the processing

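Cldn18 was called higher in 16 of 17 settings, the main one included. Its log2 fold ran from 2.57 to 3.83, the latter without pools 4 and 5, whose CD90+ libraries held the most Cldn18. With the mitochondrial rRNA covariate it was 3.49 (adjusted p = 0.751), and all calls were lost: 0% of genes tested (main 12.9%), 0 members (main 3), 0 members other than Cldn18 (main 2) and 0 list genes (main 26). That share differs between the fractions in every pool and cannot be told apart from them. Without the replicate block, 6.28% of genes, 1 other member and 8 list genes were called, Cldn4 turned to -0.11, and the unpaired exact test of the Cldn18 claudin share (29.7 percentage points) gave p = 0.0159. DESeq2 called 23.4% of genes, 6 members and 5 members other than Cldn18. Limma-voom put Cldn4 at -0.00598, and the covariate put it at -3.09. With no filter on low counts 7 members and 6 other than Cldn18 were called, Cldn4 among them (adjusted p = 5.22e-07), and Cldn2 reached 2.87e-20, each smaller than under any other setting. Without pools 4 and 5, 3.35% of genes, 1 other member and 8 list genes were called, and at a threshold of 0.01, 4.58% of genes. The length offset turned Cldn12 to -0.11. With 1 pool left out in turn, 4.37% to 13.6% of genes, 2 to 4 members, 1 to 3 other members and 11 to 24 list genes were called. The fewest genes (4.37%) and list genes were called without pool 1. Tjp3 passed in 5 of 16 settings and Cldn2 in 7 of 17. Reads of Cldn7, Ocln and Tjp3 fell to 0 to 3 in some CD90+ libraries, which limits their folds. The cause of these changes was not tested.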
